A study of Mus musculus with 15 samples.

Results

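The second interval of an induced change of pluripotent state was examined in control cells of E14TG2, a mouse embryonic stem cell (ESC) line: 3 control libraries of day 4 were set against 3 control libraries of day 2, which are 6 of the 15 libraries of the series, and every gene of the deposited count tables was used. The libraries were chosen by their titles. The other groups were ESCs at day 0, labelled Control in genotype, and Atg7 KO cells at day 2 and day 4, each with 3 libraries. Per the labels' protocols, the ESCs were grown on inactivated mouse embryonic fibroblasts with LIF, the MEK inhibitor PD0325901 and the GSK3 inhibitor CHIR99021, and the transition was run on fibronectin in N2B27 medium with Activin A, bFGF and knockout serum replacement. The same protocol text stands at all 15 libraries, the labels name ESCs as the source of every one, and they do not say how the KO was made or whether a group is 1 clone. Separate cultures are not named for the replicates, so the p-values measure only how far libraries spread within groups, which may be technical. That spread was pooled over all 15 libraries, so calls for day 4 against day 2 also depend on spread among ESC and KO libraries.

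Naive pluripotency is the state of the epiblast before implantation, held in culture by LIF and by inhibition of MEK and GSK3. When those conditions are replaced by Activin and FGF, cells leave this state through a formative stage, in which naive transcription factors are shut down, de novo DNA methyltransferases are induced and the genome regains methylation. Cells at that stage are called epiblast-like cells (EpiLCs), and their best known marker is the FGF family ligand Fgf5.

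Levels are given as CPM (the counts of a gene scaled to the same total in every library) on library sizes scaled with TMM factors, library by library in the order of the replicate numbers. They are not divided by transcript length, so they compare libraries and not genes. Means are given ± SD over the 3 libraries of a group. Differences are log2 fold changes of day 4 against day 2 ± SE from edgeR's quasi-likelihood model of all 15 libraries, with n = 3 per group and Benjamini-Hochberg adjusted p over all tested genes. The words rose, fell and changed are kept for genes with that adjusted p under 0.05. Totals were 17425578, 21066451 and 22290971 counts at day 2 and 15998619, 14059237 and 16324708 at day 4, so low values are less precise at day 4. Replicates of a group differed beyond sampling noise, at chi-square values per degree of freedom of 3.70 to 5.66 at day 2 and 4.70 to 7.00 at day 4.

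Most of the transcriptome differed between the days. Of 15696 genes tested, 10741 passed the test, which is 68.4% of those tested. Of these, 5317 rose (33.9%) and 5424 fell (34.6%). The larger changes were more often increases: 2230 genes rose at least 2-fold (14.2%) and 1732 fell at least 2-fold (11.0%). The day 4 libraries did not overlap the day 2 libraries in 11956 genes (76.2%), so absence of overlap in a gene named below is the usual case. With shares this high, a gene list stands against a background in which about 1 gene in 3 rose and about 1 in 3 fell. The lists were chosen with earlier results of these data known, so a share beyond the background can follow from the choice of members.

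**Figure D1:**
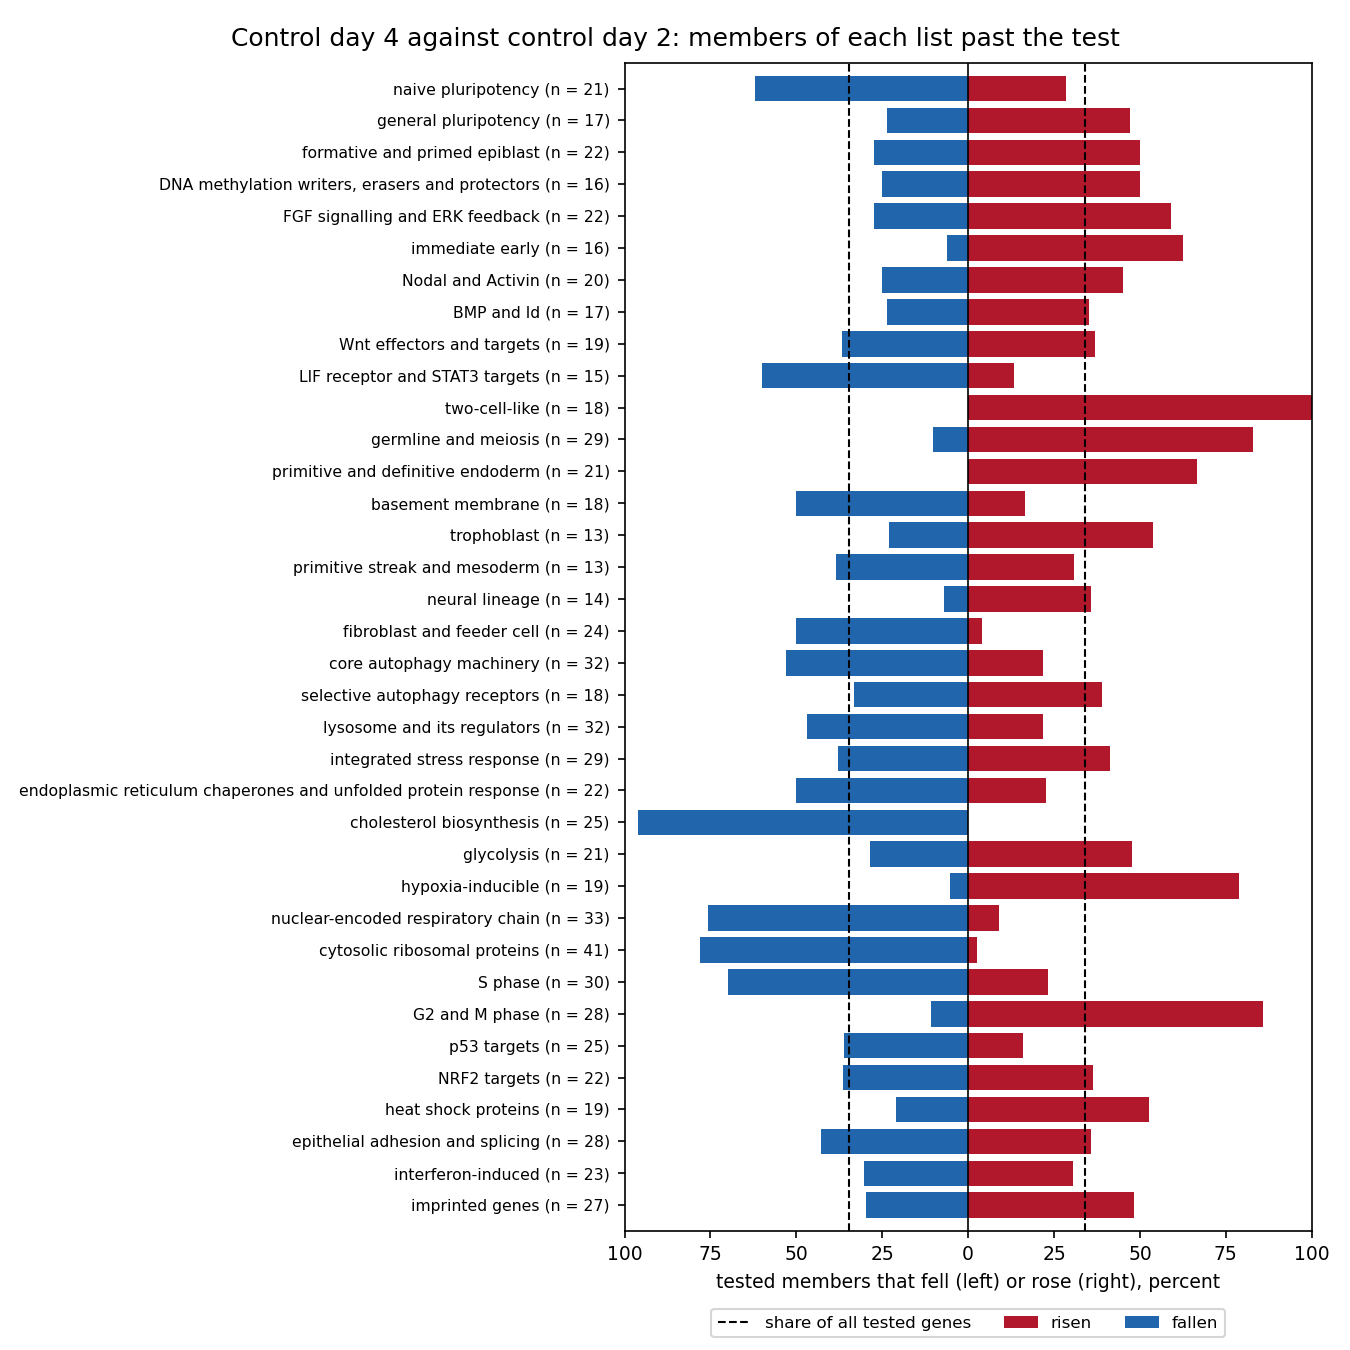
Share of the tested members of each gene list that fell (blue, left) or rose (red, right) in control day 4 against control day 2, in percent, with the number of tested members in brackets. Dashed lines mark the shares of all tested genes, 34.6% lower and 33.9% higher. The lists were chosen with earlier results of these data known. All 18 tested two-cell-like genes rose, and 24 of 25 cholesterol biosynthesis genes fell.

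Of 21 naive pluripotency genes, 13 fell, 6 rose and 2 did not pass, with a median of -0.44 against -0.01 over all tested genes. The summed level of the list went from 5102–5192 CPM at day 2 to 3431–3465 CPM at day 4. Klf4, one of the Krüppel-like factors that sustain the naive network, had 123, 118 and 119 CPM at day 2 and 42.4, 40.8 and 45.8 CPM at day 4 (log2 fold change -1.48 ± 0.11, adjusted p = 4.00e-09). Tfcp2l1, a LIF-responsive factor, had 322, 350.0 and 308 CPM at day 2 and 170.1, 173 and 159 CPM at day 4 (log2 fold change -0.97 ± 0.08, adjusted p = 1.14e-08). Dppa5a, which encodes an RNA-binding KH-domain protein abundant in ESCs, had 1654, 1822 and 1690.5 CPM at day 2 and 544, 543 and 579.6 CPM at day 4 (log2 fold change -1.63 ± 0.06, adjusted p = 4.75e-12). In each of these genes all 3 day 4 libraries lay below all day 2 libraries, and within a day the values were close together. Nanog, the homeodomain factor of the naive state, fell less. Its levels were 551, 493 and 558 CPM at day 2 and 417, 412 and 409 CPM at day 4 (log2 fold change -0.37 ± 0.10, adjusted p = 0.00313), and the 2 days did not overlap. Spic, Pecam1, Tbx3, Klf2, Prdm14, Zfp57, Tcl1, Jam2 and Fgf4 also fell, with log2 fold changes of -1.58 (Fgf4) to -0.43 (Jam2). Prdm14 did not pass without replicate 3 of day 2, replicate 2 of day 4 or replicate 3 of day 4 (adjusted p 0.0570, 0.0579 and 0.0605). Klf2 did not pass with counts corrected for the GC content of the transcript (log2 fold change -0.05), a property that moved with this comparison and is given with the plot of medians by GC content and length.

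The 6 naive genes that rose were Fbxo15, Tdh, Klf5, Dppa3, Zfp42 and Esrrb. Fbxo15, an F-box gene that marks ESCs, had 243, 220.4 and 249 CPM at day 2 and 488, 477 and 533 CPM at day 4 (log2 fold change 1.07 ± 0.08, adjusted p = 8.15e-09). Klf5, another Krüppel-like factor, had 93.7, 88.7 and 88.6 CPM at day 2 and 155, 155 and 143 CPM at day 4 (log2 fold change 0.74 ± 0.13, adjusted p = 9.52e-05). Both were higher in every day 4 library than in any day 2 library. Zfp42 (Rex1), a widely used reporter gene of the naive state, rose with a log2 fold change of 0.33 ± 0.05, and Esrrb, an orphan nuclear receptor gene, with 0.21 ± 0.07. Tdh, which encodes threonine dehydrogenase, rose (log2 fold change 0.83 ± 0.21) but stood at 58.4 ± 3.65 CPM at day 4 against 571 ± 206 CPM in the ESCs. Nr0b1 and Nr5a2, with log2 fold changes of -0.01 and -0.03, did not pass, but Nr5a2 fell with GC-corrected counts (-0.29). The call of Esrrb was lost without replicate 2 of day 2, replicate 3 of day 2 or replicate 2 of day 4 (adjusted p 0.0657, 0.0505 and 0.0636). In a fit with a feeder score as a covariate (Col1a1, Col1a2 and Col3a1, averaged as log2 CPM) Dppa3 did not pass and Nr0b1 did, with log2 fold changes of 0.45 and 0.69. The score, centred over the 15 libraries, was 0.19, 0.10 and -0.09 at day 2 and -2.58, -2.71 and -2.46 at day 4. Within groups it spread most in the ESC libraries, at 3.43, 2.49 and 0.36. Values given with the feeder score thus extrapolate, largely from libraries outside the comparison. Fewer cells of a naive kind and less RNA of the naive genes per cell cannot be told apart in bulk libraries.

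Among 17 general pluripotency genes 8 rose, 4 fell and 5 did not pass. Pou5f1, which encodes OCT4, fell, with 845, 909.6 and 814 CPM at day 2 and 415, 442 and 443 CPM at day 4 (log2 fold change -0.98 ± 0.05, adjusted p = 2.11e-10). Sox2, its partner, fell with a log2 fold change of -0.31 ± 0.06. Foxd3, a forkhead repressor, fell from 23.3, 18.5 and 21.2 CPM to 7.58, 7.80 and 9.07 CPM (log2 fold change -1.36 ± 0.33, adjusted p = 0.00173). L1td1, an RNA-binding protein gene derived from a LINE-1 element, rose most of the list, with 80.1, 65.9 and 90.0 CPM at day 2 and 359, 395 and 315 CPM at day 4 (log2 fold change 2.18 ± 0.20, adjusted p = 8.69e-08). Dppa2, which encodes a chromatin factor of pluripotent cells, had 107, 101 and 124 CPM at day 2 and 357, 351 and 344 CPM at day 4 (log2 fold change 1.66 ± 0.12, adjusted p = 5.10e-09). The let-7 antagonist Lin28b rose (log2 fold change 1.66 ± 0.13) while its paralog Lin28a, at 0.17 ± 0.28, did not pass (adjusted p = 0.602). The libraries of the 2 days did not overlap in any of these 7 genes, Lin28a included. In the fit of only the 6 libraries compared Lin28a passed (log2 fold change 0.18, adjusted p = 0.00317). The decrease of Foxd3 was lost with GC-corrected counts (log2 fold change -0.61) and with the feeder score (0.25), where Lin28a passed (1.59), and with either of them 2 genes of the list fell.

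Formative and primed epiblast genes moved in both directions. Of 22, 11 rose, 6 fell and 5 did not pass, with a median of 0.46. With GC-corrected counts 14 rose and 3 fell. Otx2, a homeodomain factor needed for exit from the naive state, had 8.59, 8.36 and 8.82 CPM at day 2 and 27.0, 36.2 and 23.9 CPM at day 4 (log2 fold change 1.75 ± 0.16, adjusted p = 5.43e-08). Every day 4 library exceeded every day 2 library. Pou3f1 (Oct6), a POU factor of the early epiblast, rose with a log2 fold change of 0.80 ± 0.22 and the Wnt effector Lef1 with 1.65 ± 0.31. Tead2, a Hippo pathway factor, had 268, 279.7 and 267 CPM at day 2 and 93.2, 91.2 and 95.6 CPM at day 4 (log2 fold change -1.54 ± 0.05, adjusted p = 3.28e-12). Slc35d3, Zic2, Pim2 and Zic5 fell, with log2 fold changes of -1.25, -0.70, -0.41 and -0.31. With GC-corrected counts Zic2 and Pim2 did not pass (log2 fold changes -0.11 and -0.12), nor Zic5 without replicate 3 of day 2 or of day 4 (adjusted p 0.156 and 0.106), with upper quartile scaling, the filter of 10 CPM, DESeq2 or the feeder score (0.0540 to 0.221). Lef1 stood at 0.10 on the log2 scale with the feeder score and did not pass. Sall2, Etv4, Tcf15, Sox3 and Car14 did not pass, but Sall2, Etv4 and Tcf15 rose with GC-corrected counts (0.53, 0.69 and 0.73). Sox3 passed without replicate 2 of day 2 (log2 fold change -0.76, adjusted p = 0.0271) or replicate 3 of day 4 (-0.78, adjusted p = 0.0374).

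The label of the transition was checked against its defining marker. Fgf5 had 2 counts in the day 2 libraries together and 30 in the day 4 libraries, a ratio of 19.4 with a counting interval of 4.92 to 168 at 95% confidence. It passed the test (adjusted p = 1.75e-04) but stayed at 0.601, 0.966 and 0.353 CPM at day 4, so the marker that defines EpiLCs was close to the limit of detection. Zfp42 stood at 310.2, 307 and 287 CPM and Esrrb at 246, 261 and 246 CPM in the same libraries, above their day 2 levels. By these genes the day 4 libraries carried de novo methyltransferases and Otx2 but little Fgf5.

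Genes of DNA methylation rose more often than they fell. Of 16 tested, 8 rose, 4 fell and 4 did not pass, and Tdg had too few counts for a test. Dnmt3a, a de novo methyltransferase, had 199.9, 199 and 208 CPM at day 2 and 496, 479 and 487 CPM at day 4 (log2 fold change 1.27 ± 0.08, adjusted p = 5.22e-10). Dnmt3b, the second such enzyme, had 121, 119 and 121 CPM at day 2 and 216, 229 and 219 CPM at day 4 (log2 fold change 0.88 ± 0.20, adjusted p = 8.91e-04). Dnmt3l, their catalytically inactive cofactor, had 306, 316 and 297 CPM at day 2 and 419, 575 and 520.3 CPM at day 4 (log2 fold change 0.72 ± 0.17, adjusted p = 0.00158). In all 3 the day 4 libraries were above the day 2 libraries, with the widest spread in Dnmt3l. The maintenance enzyme Dnmt1 and its recruiting factor Uhrf1 fell, with log2 fold changes of -0.31 ± 0.07 and -0.31 ± 0.10, but neither passed with GC-corrected counts (-0.07 and -0.09). Among the dioxygenases that oxidise methylcytosine, Tet3 rose (log2 fold change 1.45 ± 0.12) and so did Tet2 (0.54 ± 0.08), while Tet1, at -0.04 ± 0.09, did not pass but fell with GC-corrected counts (-0.29, adjusted p = 0.00801). Zfp57, which guards imprints, fell, at -0.51 ± 0.09 on the same scale, and did not pass with the feeder score (-0.09). The list holds Tet3, Dppa3 and Gadd45a of chromosome 6 and Mbd1 and Mbd2 of chromosome 18, 2 chromosomes whose genes had higher medians at day 4, as the plot of chromosome medians shows.

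**Figure D2:**
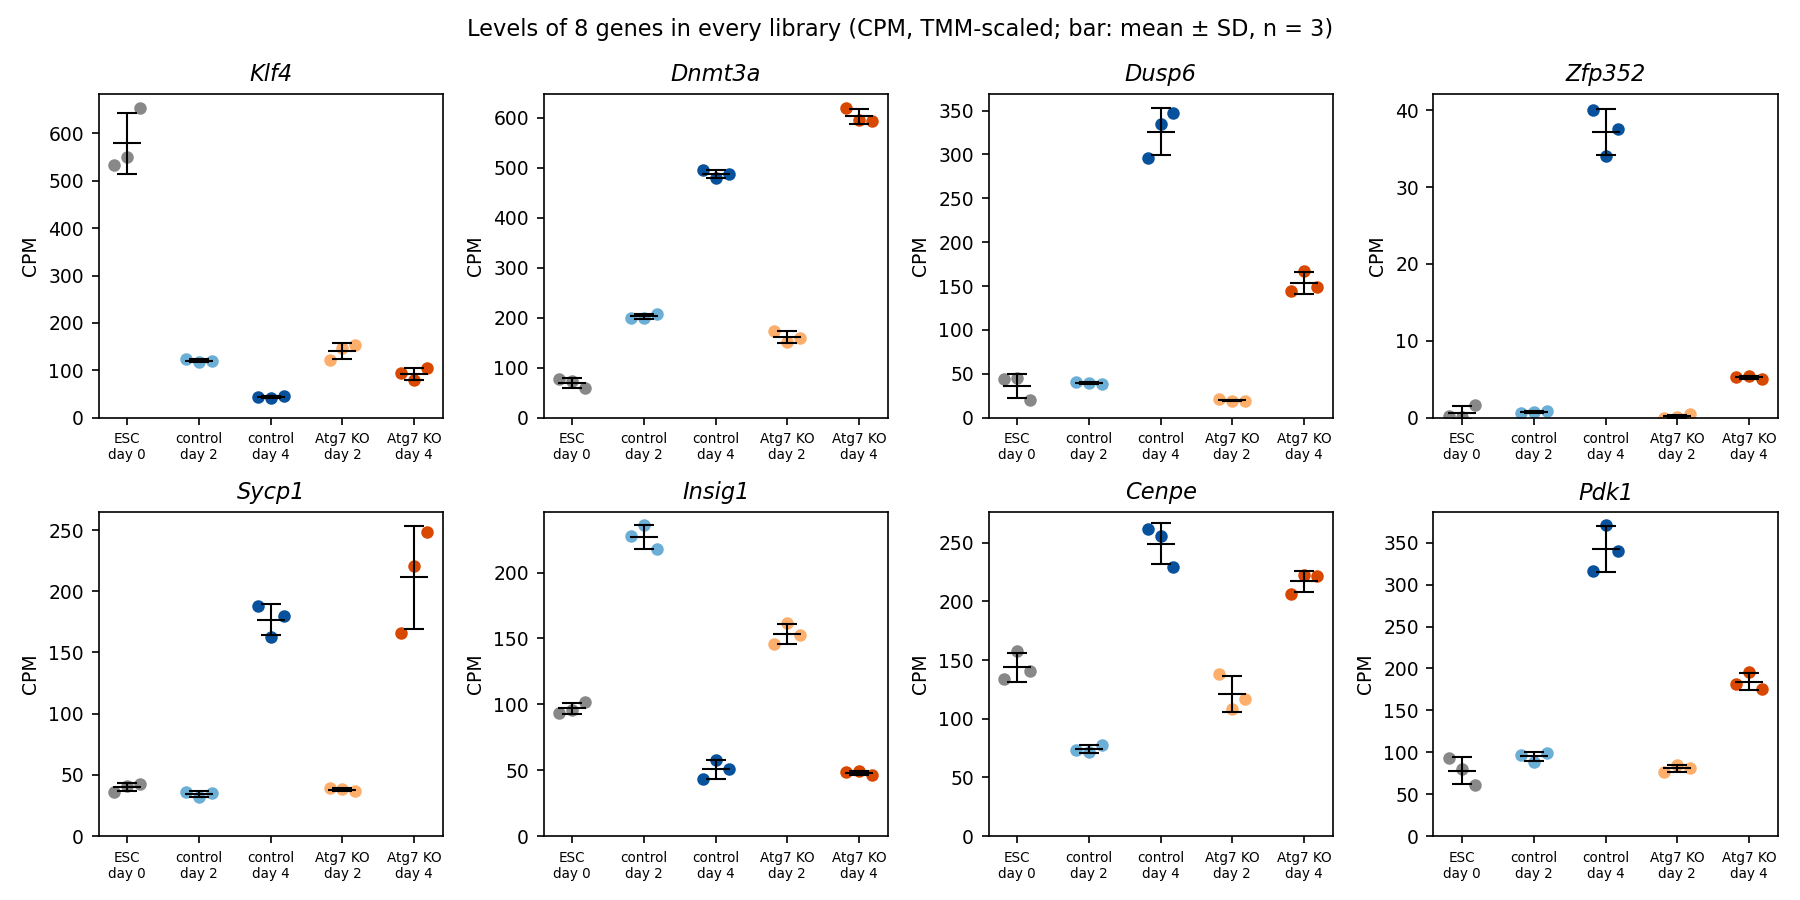
CPM of 8 genes in each of the 15 libraries, with bars for the mean ± SD of the 3 libraries of a group. Klf4 and Insig1 were lower, and Dnmt3a, Dusp6, Zfp352, Sycp1, Cenpe and Pdk1 higher, in all 3 control day 4 libraries than in all 3 control day 2 libraries.

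In FGF signalling several feedback inhibitors rose while Fgf4, Fgf8 and 3 receptors fell. Of 22 genes 13 rose, 6 fell and 3 did not pass, with a median of 0.58. Among ligands, Fgf4, the main FGF made by ESCs, had 179.9, 172 and 187 CPM at day 2 and 60.3, 60.9 and 58.7 CPM at day 4 (log2 fold change -1.58 ± 0.08, adjusted p = 1.19e-10), and Fgf8 fell from 3.01, 3.17 and 3.02 CPM to 0.301, 0.414 and 0.589 CPM (log2 fold change -2.80 ± 0.35, adjusted p = 2.36e-06). Among receptors, Fgfr1, Fgfr3 and Fgfr4 fell, with log2 fold changes of -0.56, -1.59 and -1.37. Among the inhibitors that ERK induces, Dusp6, a phosphatase of ERK, had 40.3, 39.5 and 38.5 CPM at day 2 and 296, 335 and 347 CPM at day 4 (log2 fold change 3.05 ± 0.19, adjusted p = 6.31e-10). Dusp4, a nuclear phosphatase of the same family, had 28.1, 24.2 and 23.6 CPM at day 2 and 85.2, 96.2 and 88.4 CPM at day 4 (log2 fold change 1.83 ± 0.09, adjusted p = 6.68e-11). Spry2, a Sprouty antagonist of receptor signalling, had 17.1, 17.1 and 18.8 CPM at day 2 and 102, 111 and 116 CPM at day 4 (log2 fold change 2.63 ± 0.17, adjusted p = 1.72e-09). None of these 3 overlapped between the days. Etv5, an ETS factor downstream of ERK, rose (log2 fold change 0.80 ± 0.09), Spry1 and Etv4 did not pass, and the cyclin gene Ccnd1 fell (-0.31 ± 0.10). Fgf8 and Ccnd1 did not pass with the feeder score, at log2 fold changes of -2.12 and 0.12, and Etv4 did (1.11).

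Immediate early genes, which serum and growth factors switch on within minutes, rose in most cases. Of 16, 10 rose, 1 (Srf) fell and 5 did not pass, with a median of 1.70. Egr1, a zinc finger factor, had 1.00, 0.378 and 1.08 CPM at day 2 and 28.9, 27.6 and 30.8 CPM at day 4 (log2 fold change 5.14 ± 0.38, adjusted p = 5.97e-09). Junb, an AP-1 subunit, had 4.74, 4.63 and 4.62 CPM at day 2 and 25.3, 46.2 and 34.0 CPM at day 4 (log2 fold change 2.91 ± 0.38, adjusted p = 4.30e-06). Dusp1, an immediate early MAP kinase phosphatase, had 21.9, 19.3 and 20.2 CPM at day 2 and 59.1, 82.0 and 85.5 CPM at day 4 (log2 fold change 1.88 ± 0.20, adjusted p = 2.93e-07). Every day 4 library lay above every day 2 library in these genes. The ESCs stood higher still, with Egr1 at 315 ± 123 CPM, so day 2 had the lowest mean of the 3 control times. Fos (log2 fold change 0.56, adjusted p = 0.0546), Fosb, Egr2, Jund and Nr4a1 did not pass from day 2 to day 4. Fos, Fosb, Egr2 and Nr4a1 passed with the feeder score, with log2 fold changes of 0.99 (Nr4a1) to 2.73 (Egr2), and with GC-corrected counts Srf stood at 0.12 and did not pass. Fos also passed with RLE or upper quartile scaling and with GC-corrected counts, as did Jund and Nr4a1 with the last (0.66, 0.81 and 0.50). Egr1 lies on chromosome 18.

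In the Nodal and Activin pathway 9 of 20 tested genes rose, 5 fell and 6 did not pass, with a median of 0.08. Lefty2, a secreted Nodal inhibitor, had 21.8, 20.8 and 28.4 CPM at day 2 and 225, 375 and 231 CPM at day 4 (log2 fold change 3.54 ± 0.21, adjusted p = 5.43e-10). Its paralog Lefty1 rose from 11.2, 6.99 and 12.3 CPM to 33.1, 52.5 and 31.4 CPM (log2 fold change 1.93 ± 0.25, adjusted p = 3.15e-06), and Tdgf1, the coreceptor also called Cripto, from 248, 229.6 and 242 CPM to 517, 685 and 617 CPM (log2 fold change 1.34 ± 0.15, adjusted p = 9.79e-07). Replicate 2 of day 4 was the highest library in all 3, and no day 4 library reached down to day 2. Lefty1 and Lefty2 are close paralogs, and the sources used here do not say how shared reads were split. The receptors Acvr1b and Acvr2b and the cofactor Foxh1 fell, with log2 fold changes of -0.30, -0.37 and -0.22, and Smad2 and Smad3 did not pass. None of these decreases passed with GC-corrected counts, where Acvr1b, Acvr2b and Foxh1 had log2 fold changes of -0.10, -0.10 and 0.33, the last a rise past the test, and 2 genes of the list fell. On uncorrected counts Foxh1 did not pass with RLE or upper quartile scaling, the filter of 10 CPM or DESeq2 (adjusted p 0.0896 to 0.124), with the feeder score, or when any library other than replicate 1 of day 2 was left out (0.0526 to 0.160). Smad2 fell with GC-corrected counts (-0.26) and with the feeder score (-0.39), and Smad3 passed without replicate 2 of day 2 (log2 fold change -0.23, adjusted p = 0.0468).

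Of 17 BMP and Id genes 6 rose, 4 fell and 7 did not pass, where 33.9% of all tested genes rose and 34.6% fell. Id1, an inhibitor of bHLH factors induced by BMP, had 11.7, 10.9 and 11.0 CPM at day 2 and 90.0, 89.2 and 92.3 CPM at day 4 (log2 fold change 3.02 ± 0.31, adjusted p = 2.49e-07), whereas Id2 had 63.6, 60.5 and 57.7 CPM at day 2 and 13.8, 16.9 and 19.3 CPM at day 4 (log2 fold change -1.86 ± 0.12, adjusted p = 1.11e-09). The ligand gene Bmp7 and the inhibitory Smad gene Smad6 fell, with log2 fold changes of -2.30 ± 0.23 and -2.70 ± 0.23. Id1 and Id2 moved in opposite directions without overlap of the libraries.

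Of 19 Wnt effectors and targets 7 rose, 7 fell and 5 did not pass, beside 33.9% and 34.6% of all tested genes. T (Brachyury), a streak gene and Wnt target, rose from 0.391, 0.0945 and 0.389 CPM to 3.13, 4.00 and 2.30 CPM (log2 fold change 3.40 ± 0.43, adjusted p = 2.84e-06), and the Wnt inhibitor gene Dkk1 from 0.502, 0.614 and 0.432 CPM to 5.59, 6.07 and 3.12 CPM (log2 fold change 3.24 ± 0.39, adjusted p = 1.47e-06). Tcf7l1, the repressor that restrains the naive programme, had 60.5, 59.1 and 61.1 CPM at day 2 and 31.8, 29.5 and 29.3 CPM at day 4 (log2 fold change -0.99 ± 0.10, adjusted p = 1.39e-07). Ctnnb1, which encodes beta-catenin, rose with a log2 fold change of 0.70 ± 0.07. In the LIF and STAT3 list 9 of 15 genes fell, 2 rose and 4 did not pass, with a median of -0.35. The 2 that rose were Gbx2 (log2 fold change 1.20 ± 0.19) and Junb, and among those that fell Pim3, a kinase gene, had 230.1, 219 and 217 CPM at day 2 and 86.5, 96.9 and 102 CPM at day 4 (log2 fold change -1.22 ± 0.09, adjusted p = 3.80e-09).

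Genes of the two-cell-like state rose without exception among those tested. This state is a rare condition of ESC cultures that carries transcripts of the embryo at zygotic genome activation, driven by the factor DUX. All 18 tested members rose at least 2-fold, with a median of 3.16, and none overlapped between the days. Their summed level was 208 to 228 CPM at day 2 and 857 to 996 CPM at day 4. The share of all genes that rose at least 2-fold was 14.2%, and the share without overlap was 76.2%. Zfp352, a zinc finger gene of this state, had 0.558, 0.756 and 0.864 CPM at day 2 and 40.0, 34.1 and 37.6 CPM at day 4 (log2 fold change 5.65 ± 0.42, adjusted p = 5.75e-09). Tdpoz4, which encodes a TD and POZ domain protein, had 0.670, 0.567 and 1.04 CPM at day 2 and 23.8, 21.1 and 22.5 CPM at day 4 (log2 fold change 4.86 ± 0.32, adjusted p = 1.72e-09). Usp17lc, a deubiquitinase gene, had 5.92, 4.58 and 6.18 CPM at day 2 and 51.8, 44.4 and 50.6 CPM at day 4 (log2 fold change 3.14 ± 0.18, adjusted p = 3.12e-10). Sp110, a nuclear body gene, rose from 1.06, 0.945 and 1.77 CPM to 16.9, 13.9 and 20.0 CPM (log2 fold change 3.72 ± 0.27, adjusted p = 5.56e-09). The ESCs stood at 0.640 ± 0.817 CPM for Zfp352. Tcstv1, Tdpoz1 and Gm4340 had too few counts for a test and Duxf3 was not among the symbols. Many members belong to families of near-identical copies, so the value of a single copy is uncertain. In the fit with the feeder score 14 of the 18 rose, at a median of 1.47.

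Germline and meiosis genes, which are silent in most somatic tissues, also rose in most cases. Of 29 tested, 24 rose, 3 fell and 2 did not pass, with a median of 0.92. Sycp1, which encodes the transverse filament of the synaptonemal complex, had 35.7, 31.7 and 35.3 CPM at day 2 and 188, 163 and 179.7 CPM at day 4 (log2 fold change 2.37 ± 0.12, adjusted p = 7.89e-11). Tex11, a meiotic crossover gene of the X chromosome, had 18.7, 16.0 and 17.7 CPM at day 2 and 84.0, 77.9 and 85.3 CPM at day 4 (log2 fold change 2.24 ± 0.09, adjusted p = 6.21e-12). Stk31, a testis kinase gene, had 37.2, 36.4 and 38.2 CPM at day 2 and 97.5, 101 and 99.5 CPM at day 4 (log2 fold change 1.41 ± 0.09, adjusted p = 1.61e-09). No library of day 2 reached a library of day 4 in these genes. The 3 that fell were Rec8, the meiotic cohesin gene, with 100.4, 108 and 103 CPM at day 2 and 28.6, 27.7 and 28.4 CPM at day 4 (log2 fold change -1.88 ± 0.10, adjusted p = 1.94e-10), Stra8, the retinoic acid target that opens meiosis, with a log2 fold change of -0.75, and Dpep3, with -0.81. Piwil2 and Zcwpw1 did not pass, but Piwil2 rose with RLE or upper quartile scaling, the filter of 10 CPM and DESeq2 (log2 fold changes 0.23 to 0.25). With GC-corrected counts 20 rose and 4 fell, at a median of 0.60, and Zcwpw1 was among those that fell (-0.26). The feeder score gave 17 risen and 4 fallen, at a median of 0.43.

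Promoters of germline genes that methylation silences often hold E-box or E2F-like sites, which MGA and E2F6 bind as subunits of a Polycomb complex. In the RefSeq promoter windows (250 bases before to 50 after the start, GRCm38.p6), 27 of the 29 members were matched, with 32 windows. CACGTG, which reads the same on both strands, was in 16 of these 32 windows (50.0%) and in 7.15% of 32851 windows of all genes. TCCCGC, searched on both strands, was in 40.6% and 20.0% of them. Counted by gene, 13 of 27 members held CACGTG, against 11.3% of 12143 tested genes with a window, and 12 of 27 held TCCCGC, against 38.2%. Of the 12 members with TCCCGC 11 rose and 1 fell, at a median of 0.79. Of 15 without it 12 rose, 2 fell and 1 did not pass, at a median of 1.00. All 13 members with CACGTG rose, at a median of 1.02, and of 14 without it 10 rose, 3 fell and 1 did not pass, at a median of 0.61. Bases -120 to -21 from the start are shown for 4 risen members, 5′ to 3′ on the strand of the gene, because they place the hexamer (capitals) near the start. They lie at chr3:102936121-102936220 (minus strand, Sycp1), chrX:134476511-134476610 (minus, Taf7l), chr3:40708751-40708850 (plus, Slc25a31) and chr10:88459467-88459566 (plus, Sycp3), upstream of the start and outside annotated exons.
Sycp1: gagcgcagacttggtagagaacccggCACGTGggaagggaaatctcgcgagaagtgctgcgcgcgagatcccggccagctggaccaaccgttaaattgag
Taf7l: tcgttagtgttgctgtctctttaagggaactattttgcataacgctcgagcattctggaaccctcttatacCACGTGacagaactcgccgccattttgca
Slc25a31: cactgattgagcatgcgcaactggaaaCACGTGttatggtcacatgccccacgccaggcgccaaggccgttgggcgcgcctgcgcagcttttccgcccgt
Sycp3: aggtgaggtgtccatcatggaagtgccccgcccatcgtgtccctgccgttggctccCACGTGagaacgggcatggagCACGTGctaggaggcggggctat
The hexamer begins at base -94 in Sycp1, -49 in Taf7l and -93 in Slc25a31, and Sycp3 holds it at -64 and -43. Taf7l, a germline TFIID subunit gene, went from 44.8, 46.1 and 43.6 CPM to 274, 289 and 290.3 CPM (log2 fold change 2.67 ± 0.20, adjusted p = 8.43e-09). Slc25a31, a germ cell ADP/ATP carrier gene, went from 44.1, 31.6 and 41.0 CPM to 132, 139 and 144 CPM (log2 fold change 1.83 ± 0.18, adjusted p = 1.53e-07). Sycp3, which encodes an axial element protein, went from 48.4, 50.4 and 52.0 CPM to 111, 106 and 115 CPM (log2 fold change 1.14 ± 0.09, adjusted p = 1.13e-08). These 3 were named after their values were seen, for their promoters. Each rose without overlap of the libraries. A match of the letters describes the promoter only.

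Of 27 tested imprinted genes 13 rose, 8 fell and 6 did not pass, with a median of 0.51. Peg10, a paternally expressed gene derived from a retrotransposon, had 706, 728 and 693 CPM at day 2 and 2840.2, 3196 and 3077 CPM at day 4 (log2 fold change 2.10 ± 0.13, adjusted p = 6.86e-10). Mest, also paternally expressed, had 153, 148 and 145 CPM at day 2 and 378, 348 and 344 CPM at day 4 (log2 fold change 1.26 ± 0.08, adjusted p = 8.01e-10). Dlk1, a Notch-like ligand gene, had 39.8, 39.6 and 37.9 CPM at day 2 and 8.36, 8.97 and 11.7 CPM at day 4 (log2 fold change -2.01 ± 0.12, adjusted p = 7.82e-10). Peg10 and Mest lie on chromosome 6. Alleles cannot be told apart in these counts.

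Lineage lists cover cells that such cultures could hold beside epiblast. Of 21 tested endoderm genes 14 rose and none fell, with 7 not past the test and a median of 0.93. Their summed level was 1045 to 1142 CPM at day 2 and 1282 to 1539 CPM at day 4. Sox7, a primitive endoderm factor, had 1.28, 2.22 and 2.03 CPM at day 2 and 21.7, 18.98 and 17.5 CPM at day 4 (log2 fold change 3.37 ± 0.28, adjusted p = 2.22e-08). Dab2, an endocytic adaptor of extraembryonic endoderm, had 31.0, 31.5 and 33.5 CPM at day 2 and 198, 159.8 and 123 CPM at day 4 (log2 fold change 2.32 ± 0.20, adjusted p = 3.11e-08). Both rose without overlap. Gata6, which sits at the head of the primitive endoderm programme, had 93.7, 75.8 and 84.5 CPM at day 2 and 81.8, 83.2 and 86.0 CPM at day 4 and did not pass, and its libraries overlapped. Foxa1 did not pass either, but fell with the feeder score (log2 fold change -1.69). Ttr, Apoa1 and Cer1 had too few counts for a test. The fit with the feeder score gave 9 risen and 3 fallen, at a median of 0.46.

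Among 18 basement membrane genes 3 rose, 9 fell and 6 did not pass. Lama1, a laminin chain of the embryonic basement membrane, had 88.4, 90.2 and 84.7 CPM at day 2 and 335, 283 and 206 CPM at day 4 (log2 fold change 1.64 ± 0.18, adjusted p = 5.54e-07), and with GC-corrected counts 6 members rose. Lama5, Lamb2 and Col18a1 fell, with log2 fold changes of -1.03, -1.33 and -1.03. Of 13 tested trophoblast genes 7 rose, 3 fell and 3 did not pass. Krt8, a simple epithelial keratin gene, had 68.2, 60.5 and 64.9 CPM at day 2 and 272, 357 and 361 CPM at day 4 (log2 fold change 2.35 ± 0.11, adjusted p = 5.10e-11), and its partner Krt18 had 69.3, 66.3 and 65.7 CPM at day 2 and 183, 236 and 244 CPM at day 4 (log2 fold change 1.72 ± 0.12, adjusted p = 2.16e-09). The trophoblast regulators Ascl2, Gata3 and Tfap2c fell, with log2 fold changes of -2.19, -1.67 and -0.33, and Cdx2 and Elf5 had too few counts for a test. Tfap2c passed with all 6 libraries or without replicate 3 of day 2, and leaving out any other library gave adjusted p of 0.0529 to 0.127. Nor did it pass with RLE or upper quartile scaling, the filter of 10 CPM, DESeq2 (adjusted p 0.0516 to 0.0697) or GC-corrected counts (log2 fold change -0.18). Primitive streak genes gave 4 risen, 5 fallen and 4 not past the test of 13. Kdr, a receptor gene of early mesoderm, and the T-box gene Eomes rose, with log2 fold changes of 2.79 ± 0.29 and 1.16 ± 0.11. Gsc and Mesp2 fell, with -2.51 ± 0.45 and -0.98 ± 0.23, and Mesp2 did not pass with GC-corrected counts (-0.48). With the feeder score 7 streak genes rose and 2 fell. Mixl1, Evx1, Mesp1, Lhx1 and Msgn1 had too few counts for a test. Of 14 tested neural genes 5 rose, 1 (Stmn2) fell and 8 did not pass. The number that fell was 3 without replicate 2 of day 2, 2 without replicate 1 or 3 of day 4 and 4 with the feeder score. Nes, an intermediate filament gene, and Tubb3, a tubulin gene of neurons, rose, with log2 fold changes of 1.88 ± 0.13 and 1.74 ± 0.09. Sox1, the neural plate factor, stood at 1.98, 1.86 and 1.88 CPM at day 4 and did not pass.

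The epithelial list of 28 gave 10 risen, 12 fallen and 6 not past the test. Of all tested genes 33.9% rose and 34.6% fell. St14, which encodes the serine protease matriptase, had 242, 271 and 245 CPM at day 2 and 67.7, 71.4 and 82.3 CPM at day 4 (log2 fold change -1.77 ± 0.14, adjusted p = 9.79e-09). Its inhibitor gene Spint2 and the junction gene Tjp3 fell, with log2 fold changes of -1.15 ± 0.08 and -1.86 ± 0.11, while Tjp1 rose, with 0.55 ± 0.05.

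Fibroblast and feeder genes were listed for the inactivated fibroblasts on which the ESCs had been grown. Of 24 tested, 12 fell, 1 rose and 11 did not pass, with a median of -1.13, and their summed level went from 2524–2741 CPM to 1616–1745 CPM. The rise was Vim, an intermediate filament gene, with 219, 223 and 198 CPM at day 2 and 481, 488 and 475 CPM at day 4 (log2 fold change 1.18 ± 0.21, adjusted p = 1.11e-04). The summed level of the collagens Col1a1, Col1a2 and Col3a1 was 163 to 192 CPM at day 2 and 26.9 to 28.9 CPM at day 4. Fn1, which encodes fibronectin, fell from 1689, 1773 and 1637 CPM to 904, 915 and 797 CPM (log2 fold change -0.96 ± 0.05, adjusted p = 2.84e-10). It made up most of the summed level of the list, so that sum follows Fn1 more than the collagens. The decrease of these markers ran beside every other change between the days. In the fit with the feeder score as a covariate 9252 genes passed. Of this list, which holds the collagens of the score, 15 members rose and 5 fell there, at a median of 1.27. The part of feeder cells in the change of a single gene was not tested.

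Cholesterol biosynthesis fell almost as a whole. Of 25 genes of the pathway and its regulators 24 fell, 16 of them at least 2-fold, none rose, and Ebp did not pass. The median was -1.09, and none of the 25 overlapped between the days, beside 76.2% of all tested genes without overlap. Insig1, the sterol sensor that retains SREBP in the endoplasmic reticulum, had 228, 236 and 218 CPM at day 2 and 43.5, 57.8 and 50.5 CPM at day 4 (log2 fold change -2.17 ± 0.08, adjusted p = 5.21e-12). Dhcr7, which encodes the last enzyme of the pathway, had 178, 189 and 169 CPM at day 2 and 49.1, 47.0 and 53.4 CPM at day 4 (log2 fold change -1.84 ± 0.06, adjusted p = 3.28e-12). Fdps, which encodes farnesyl diphosphate synthase, had 133, 134 and 128 CPM at day 2 and 39.3, 40.3 and 43.8 CPM at day 4 (log2 fold change -1.68 ± 0.07, adjusted p = 1.61e-11). The day 2 levels of Insig1 and Dhcr7 were above those of the ESCs, at 96.9 ± 4.29 CPM and 63.3 ± 0.784 CPM. A GC correction left 24 fallen and none risen, and the feeder covariate 23 and none. Ebp fell in the fit of only the 6 libraries compared (log2 fold change -0.22, adjusted p = 0.0447). The element TCACNCCAC, searched on both strands, was in the promoter windows of 1 of 17 matched members, against 1.49% of tested genes with a window.

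Hypoxia-inducible genes rose in most cases. Of 19 tested, 15 rose, 1 (Mxi1) fell and 3 did not pass, with a median of 1.03. Pdk1, the kinase that closes the entry of pyruvate into mitochondria, had 96.6, 88.8 and 99.7 CPM at day 2 and 316, 371 and 340.2 CPM at day 4 (log2 fold change 1.85 ± 0.11, adjusted p = 4.95e-10). Bnip3, a mitophagy receptor gene, had 34.6, 35.3 and 35.4 CPM at day 2 and 71.0, 214 and 170.4 CPM at day 4 (log2 fold change 2.11 ± 0.26, adjusted p = 2.33e-06). P4ha2, a collagen prolyl hydroxylase gene, had 32.4, 30.5 and 34.2 CPM at day 2 and 74.9, 108 and 95.3 CPM at day 4 (log2 fold change 1.52 ± 0.14, adjusted p = 6.21e-08). All day 4 libraries exceeded all day 2 libraries, but they were graded in the same order in these genes, with replicate 1 lowest and replicate 2 highest. Car9, Adm and Higd1a did not pass, with log2 fold changes of -0.51, 0.89 and 0.10. Adm had 3.19, 12.3 and 10.4 CPM at day 4, with replicate 1 below and the other 2 libraries above its day 2 level. Without that replicate 1 Adm and Higd1a passed, with log2 fold changes of 1.29 (adjusted p = 0.00366) and 0.34 (adjusted p = 0.0277). TACGTG, searched on both strands, was in the promoter windows of 5 of 16 matched members, against 4.21% of tested genes with a window. The median was 0.76 in these 5 members and 0.89 in the 11 without it.

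Glycolysis genes did not move together. Of 21 tested, 10 rose, 6 fell and 5 did not pass, with a median of 0.17. Slc2a1, the glucose transporter GLUT1, had 263, 255 and 257 CPM at day 2 and 712, 1535 and 1275 CPM at day 4 (log2 fold change 2.18 ± 0.18, adjusted p = 2.84e-08). Hk2, the inducible hexokinase, had 155, 171 and 160.5 CPM at day 2 and 273, 399 and 333 CPM at day 4 (log2 fold change 1.04 ± 0.10, adjusted p = 1.63e-07), whereas its paralog Hk1 had 142, 147 and 134 CPM at day 2 and 37.2, 44.7 and 42.0 CPM at day 4 (log2 fold change -1.77 ± 0.08, adjusted p = 2.24e-11). The transporter and Hk2 were above day 2 in every day 4 library and Hk1 below, and in all 3 the day 4 libraries had the same order as in the hypoxia genes. Pfkm, Eno3 and Gapdh fell, with log2 fold changes of -1.13, -0.64 and -0.17. Gapdh did not pass without replicate 1 or 2 of day 2 or replicate 1 of day 4 (adjusted p 0.0540, 0.0737 and 0.140), nor with RLE or upper quartile scaling, the filter of 10 CPM, DESeq2, only the libraries compared or the feeder score (0.0573 to 0.141), and stood at -0.03 on the log2 scale with GC-corrected counts. With the feeder score Eno3 did not pass (-0.04) and 3 members fell. Aldoa, Gpi1, Pgam1, Ldhb and Slc16a1 did not pass. Gpi1 passed without replicate 1 of day 4 (log2 fold change 0.21, adjusted p = 0.0409), Pgam1 without replicate 2 of day 4 (-0.22, adjusted p = 0.0140) and Aldoa with GC-corrected counts (0.36). Ldhb fell and Slc16a1 rose with the feeder score (-1.20 and 0.61). Of the members, Slc2a3, Hk2, Tpi1, Gapdh and Ldhb lie on chromosome 6.

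Nuclear genes of the respiratory chain fell, with 25 of 33 lower, 3 higher and 5 not past the test, at a median of -0.51. Uqcrc1, a core subunit of complex III, had 439, 448 and 419 CPM at day 2 and 164, 174 and 181 CPM at day 4 (log2 fold change -1.33 ± 0.05, adjusted p = 7.32e-12). Cyc1, which encodes cytochrome c1, had 255, 261 and 242 CPM at day 2 and 121, 131 and 136 CPM at day 4 (log2 fold change -0.97 ± 0.06, adjusted p = 5.25e-10). Sdhc, a membrane anchor of complex II, had 146, 159 and 141 CPM at day 2 and 72.6, 72.2 and 76.1 CPM at day 4 (log2 fold change -1.02 ± 0.06, adjusted p = 2.36e-10). Each fell without overlap. The 3 that rose were Cycs, which encodes cytochrome c, Ndufa4 and Ndufa9, with log2 fold changes of 0.72, 0.38 and 0.31, and all 3 lie on chromosome 6. With GC-corrected counts Ndufa4 did not pass (0.02). Cytosolic ribosomal protein genes fell by small amounts: 32 of 41 fell, 1 (Rpl5) rose and 8 did not pass, none of them by 2-fold, with a median of -0.35. Rpl8 had 2089, 2206 and 1984 CPM at day 2 and 1085, 1124 and 1235 CPM at day 4 (log2 fold change -0.87 ± 0.06, adjusted p = 4.25e-09). Without replicate 2 of day 2 and without replicate 1 of day 4 the number that rose was 3 and 2, and with GC content and length corrected 24 fell and 10 rose. The many pseudogenes of this family make single values uncertain.

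Cell cycle genes divided by phase. Of 28 G2 and M phase genes 24 rose, 3 fell and 1 did not pass, with a median of 0.67. None of the 28 overlapped between the days, and 76.2% of all tested genes did not either. Cenpe, a kinetochore motor gene, had 73.3, 71.5 and 77.8 CPM at day 2 and 262, 256 and 229 CPM at day 4 (log2 fold change 1.75 ± 0.09, adjusted p = 7.53e-11). Aurka, which encodes the spindle pole kinase Aurora A, had 54.9, 55.1 and 54.0 CPM at day 2 and 154, 148 and 142 CPM at day 4 (log2 fold change 1.43 ± 0.07, adjusted p = 4.64e-11). Kif20a, a cytokinesis kinesin gene on chromosome 18, had 129, 125 and 134 CPM at day 2 and 344, 343 and 333 CPM at day 4 (log2 fold change 1.39 ± 0.05, adjusted p = 4.50e-12). The 3 that fell were Aurkb, Cenpa and Ccnb2, with log2 fold changes of -0.42, -0.31 and -0.17, and Ccnb2 did not pass without replicate 2 of day 2 or replicate 1 of day 4 (adjusted p 0.0685 and 0.0865), nor with RLE or upper quartile scaling, the filter of 10 CPM, DESeq2 or the feeder score (0.0538 to 0.0936). Of 30 S phase genes 21 fell, 7 rose and 2 did not pass, with a median of -0.29. Ung, the uracil glycosylase gene, had 188, 186 and 173 CPM at day 2 and 63.1, 67.8 and 68.3 CPM at day 4 (log2 fold change -1.46 ± 0.06, adjusted p = 2.17e-11). Cdt1, a replication licensing gene, had 169.8, 173 and 169 CPM at day 2 and 76.2, 78.6 and 72.0 CPM at day 4 (log2 fold change -1.17 ± 0.06, adjusted p = 9.67e-11), and Pold1, the catalytic subunit of polymerase delta, fell with a log2 fold change of -1.20 ± 0.05. Among the 7 that rose were the helicase gene Hells, the cyclin gene Ccne2 and the clamp gene Pcna, with log2 fold changes of 0.81, 0.82 and 0.48, of which Ccne2 did not pass with GC-corrected counts (0.35). In all, 13 S phase genes fell in the fit with the feeder score. In the p53 list 4 of 25 rose, 9 fell and 12 did not pass. Pmaip1 (Noxa), an apoptosis gene of chromosome 18, rose (log2 fold change 1.01 ± 0.15) and Ddb2, a DNA repair gene, fell (-1.21 ± 0.10), while Mdm2 did not pass (-0.24 ± 0.18). With the feeder score 18 members fell, Mdm2 among them (-1.10), and Pmaip1 did not pass (0.39).

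Stress pathways showed mixed directions. Of 29 integrated stress response genes 12 rose, 11 fell and 6 did not pass. Asns, which encodes asparagine synthetase, had 332, 348 and 319.5 CPM at day 2 and 609, 629.9 and 642 CPM at day 4 (log2 fold change 0.91 ± 0.09, adjusted p = 1.33e-07), and Sesn2, a sestrin gene, had 57.6, 60.1 and 61.3 CPM at day 2 and 118, 123 and 116 CPM at day 4 (log2 fold change 0.99 ± 0.07, adjusted p = 2.72e-09). Phgdh, the first enzyme of serine synthesis, had 263, 255 and 247 CPM at day 2 and 98.1, 97.8 and 104 CPM at day 4 (log2 fold change -1.35 ± 0.11, adjusted p = 1.07e-08), and Cbs, of the transsulfuration pathway, had 54.3, 56.6 and 50.3 CPM at day 2 and 11.7, 14.9 and 17.0 CPM at day 4 (log2 fold change -1.88 ± 0.15, adjusted p = 1.01e-08). None of these 4 overlapped between the days. Ddit3, which encodes CHOP, fell with a log2 fold change of -0.82 ± 0.21, and Trib3, Shmt2, Mthfd2 and Psat1 did not pass. With the feeder score 7 members fell, and Shmt2, Mthfd2 and Psat1 rose, with log2 fold changes of 0.32, 0.34 and 0.34. In the fit of only the 6 libraries compared Shmt2 and Psat1 fell instead, with -0.18 and -0.13 (adjusted p 0.0255 and 0.0470). The sign of the list's median turned with the GC correction, from -0.19 to 0.10.

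The element TGATGNAA, searched on both strands and bound by ATF4 with C/EBP partners, was in 8 of 30 promoter windows of 26 matched members (26.7%) and in 3.97% of all windows. Of the 8 members that hold it 5 rose, 2 fell and 1 did not pass, and of 18 matched members without it 7 rose, 7 fell and 4 did not pass. Bases -120 to -21 are shown for 2 members that rose and 1 that fell, because members with the same element moved both ways. Capitals mark the element on either strand. The windows are chr3:50443634-50443733 (minus strand, Slc7a11), chr1:191183354-191183453 (minus, Atf3) and chr11:120643769-120643868 (minus, Pycr1), upstream of the start and outside annotated exons, from RefSeq on GRCm38.p6.
Slc7a11: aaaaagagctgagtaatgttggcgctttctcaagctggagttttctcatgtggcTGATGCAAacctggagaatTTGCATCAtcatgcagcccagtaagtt
Atf3: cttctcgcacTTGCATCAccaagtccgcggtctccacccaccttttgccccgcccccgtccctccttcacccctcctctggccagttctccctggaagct
Pycr1: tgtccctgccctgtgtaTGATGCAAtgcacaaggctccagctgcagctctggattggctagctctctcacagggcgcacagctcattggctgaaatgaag
The element begins at -66 and -47 in Slc7a11, at -110 in Atf3 and at -103 in Pycr1. Slc7a11, the cystine transporter gene, went from 0.502, 0.520 and 0.432 CPM to 2.89, 3.11 and 2.94 CPM (log2 fold change 2.61 ± 0.48, adjusted p = 1.45e-04) and was named after its values were seen. Atf3, a bZIP stress factor, had 2.40, 2.41 and 1.90 CPM at day 2 and 6.92, 8.08 and 9.84 CPM at day 4 (log2 fold change 1.89 ± 0.20, adjusted p = 3.78e-07). Pycr1, a proline synthesis gene, had 46.0, 48.1 and 45.0 CPM at day 2 and 16.7, 14.1 and 13.6 CPM at day 4 (log2 fold change -1.64 ± 0.10, adjusted p = 4.98e-10). Slc7a11 and Atf3 rose and Pycr1 fell, each without overlap of the libraries.

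Of 22 endoplasmic reticulum chaperone genes 5 rose, 11 fell and 6 did not pass. Hspa5 (BiP) and Xbp1, a transducer of the unfolded protein response, rose with log2 fold changes of 0.51 ± 0.11 and 0.86 ± 0.07, while the cochaperone gene Sdf2l1 fell (-1.40 ± 0.11). Hspa5 did not pass with the feeder score (0.30). Of 19 heat shock genes 10 rose, 4 fell and 5 did not pass. Hsph1, an HSP110 gene, had 75.0, 79.1 and 75.0 CPM at day 2 and 232, 243 and 231 CPM at day 4 (log2 fold change 1.62 ± 0.06, adjusted p = 4.75e-12), and Hspa8, the constitutive HSP70, had 1655, 1695 and 1641 CPM at day 2 and 3734, 3559.8 and 3632 CPM at day 4 (log2 fold change 1.13 ± 0.06, adjusted p = 1.40e-10). Hspb1, a small heat shock protein gene, fell, with 833, 796 and 775 CPM at day 2 and 304, 357 and 361 CPM at day 4 (log2 fold change -1.23 ± 0.12, adjusted p = 1.67e-07). Of 22 NRF2 targets 8 rose, 8 fell and 6 did not pass, beside 33.9% higher and 34.6% lower over all tested genes. Srxn1, which encodes sulfiredoxin, rose (log2 fold change 0.92 ± 0.09) and Tkt, which encodes transketolase, fell (-1.30 ± 0.05).

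Core autophagy genes fell more often than they rose, with small sizes. Of 32, 17 fell, 7 rose and 8 did not pass, with a median of -0.22. Atg9a, the lipid scramblase of early autophagosomes, had 46.3, 44.8 and 42.1 CPM at day 2 and 20.8, 20.0 and 19.1 CPM at day 4 (log2 fold change -1.15 ± 0.07, adjusted p = 8.09e-10). Wipi1, a phosphoinositide-binding effector, had 42.1, 44.6 and 40.7 CPM at day 2 and 19.5, 21.4 and 23.3 CPM at day 4 (log2 fold change -0.99 ± 0.08, adjusted p = 1.84e-08). Atg14, a subunit of the class III PI3-kinase complex, had 97.2, 109.7 and 97.5 CPM at day 2 and 51.2, 57.4 and 57.7 CPM at day 4 (log2 fold change -0.87 ± 0.07, adjusted p = 9.83e-09). Atg7, the E1-like enzyme gene that the KO groups target, rose, with 14.6, 12.1 and 14.0 CPM at day 2 and 19.1, 19.9 and 19.4 CPM at day 4 (log2 fold change 0.52 ± 0.10, adjusted p = 3.08e-04), and its E2 partner Atg3 rose with a log2 fold change of 0.65 ± 0.10. The 2 days did not overlap in these genes. Atg7 lies on chromosome 6, and Atg12, which did not pass but fell with GC-corrected counts (log2 fold change -0.28), on chromosome 18.

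Of 18 selective autophagy receptors 7 rose, 6 fell and 5 did not pass, beside 33.9% higher and 34.6% lower over all tested genes. Tax1bp1, a ubiquitin-binding receptor on chromosome 6, had 109, 105 and 112 CPM at day 2 and 303, 294 and 281 CPM at day 4 (log2 fold change 1.43 ± 0.06, adjusted p = 1.28e-11). Sqstm1 (p62), the main aggregate receptor, had 169, 180.4 and 167 CPM at day 2 and 299, 287 and 310.0 CPM at day 4 (log2 fold change 0.79 ± 0.05, adjusted p = 1.07e-09). Calcoco2 (NDP52) fell, with 219.8, 247 and 217 CPM at day 2 and 110.4, 117 and 122 CPM at day 4 (log2 fold change -0.97 ± 0.08, adjusted p = 3.47e-08). All 3 were without overlap. Of 32 lysosome genes 15 fell, 7 rose and 10 did not pass. Scarb2, a lysosomal membrane protein gene, Mcoln1, a lysosomal calcium channel gene, and Hexa, a beta-hexosaminidase subunit gene, fell, with log2 fold changes of -1.20, -1.13 and -0.93. Npc1, the cholesterol transporter gene on chromosome 18, and the protease gene Ctsl rose, with 0.89 and 0.53, and Lamp1 did not pass.

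Of 23 tested interferon-induced genes 7 rose, 7 fell and 9 did not pass. Over all tested genes 33.9% rose and 34.6% fell. Ddx58 (RIG-I), a sensor of viral RNA, had 9.43, 5.91 and 8.95 CPM at day 2 and 39.2, 40.9 and 36.6 CPM at day 4 (log2 fold change 2.27 ± 0.38, adjusted p = 5.49e-05), and Ifih1 (MDA5) rose from 0.0558, 0.0472 and 0.130 CPM to 0.662, 0.759 and 0.707 CPM (log2 fold change 3.04 ± 0.57, adjusted p = 1.76e-04). The antigen-processing gene Tap1 fell, with 55.0, 54.6 and 53.5 CPM at day 2 and 13.9, 14.5 and 13.8 CPM at day 4 (log2 fold change -1.95 ± 0.22, adjusted p = 9.80e-07), and so did Ifitm3 and Ifitm2, with log2 fold changes of -2.24 and -1.76. Ifit2, Irf7 and Irf9 were among those that did not pass, and Ifit2 rose with the feeder score (log2 fold change 1.65). The Ifitm genes are close paralogs, so their single values are uncertain.

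The largest increases by the stated rule (no overlap, and 5 CPM or more in the group that was higher) were in genes nearly silent at day 2. A ranking by log2 fold change with a minimum only in the higher group favours such genes. Genes this low at day 2 passed the filter through groups in which they were higher. Dcc, a netrin receptor gene on chromosome 18, had 0.112, 0.0472 and 0.173 CPM at day 2 and 18.9, 17.7 and 17.7 CPM at day 4 (log2 fold change 7.25 ± 0.47, adjusted p = 1.37e-09). Cpb2, a plasma carboxypeptidase gene, had 0.223, 0.0945 and 0.216 CPM at day 2 and 14.8, 12.6 and 14.8 CPM at day 4 (log2 fold change 6.26 ± 0.37, adjusted p = 5.13e-10). Tfec, an MiT family factor, had 0.112, 0.0472 and 0.0432 CPM at day 2 and 7.40, 7.39 and 4.12 CPM at day 4 (log2 fold change 6.46 ± 0.55, adjusted p = 2.80e-08). Each lay near 0 in the day 2 libraries, and Tfec did not pass with the feeder score (log2 fold change 4.02). Olfr815, an odorant receptor gene, had 3 counts at day 2 and 247 at day 4, a ratio of 107 with a counting interval of 36.0 to 520.1, and did not pass with the feeder score (adjusted p = 0.177). Klhl6, Tacr3, Spz1, Zfp352, Rdh1, Inpp4b, Samd9l and Abcb5 completed the 12, with log2 fold changes of 5.45 to 6.07.

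The largest decreases were in genes of low to moderate level. Lyz2, a lysozyme gene of myeloid cells, had 5.52, 5.48 and 5.49 CPM at day 2 and 0, 0.138 and 0.236 CPM at day 4 (log2 fold change -5.39 ± 0.43, adjusted p = 1.31e-08). Bglap3, an osteocalcin-family gene, had 8.71, 10.3 and 7.78 CPM at day 2 and 0.180, 0.414 and 0.648 CPM at day 4 (log2 fold change -4.40 ± 0.28, adjusted p = 1.03e-09). Acaa1b, a peroxisomal thiolase gene, had 47.1, 52.8 and 40.0 CPM at day 2 and 4.81, 4.14 and 5.42 CPM at day 4 (log2 fold change -3.27 ± 0.31, adjusted p = 9.25e-08). No day 4 library reached a day 2 library in these genes. Shisa8, Cplx1, Plk5, Fermt3, Ly6a, Cd164l2, Rasl10b, Nos1ap and Tmem91 completed the 12, with log2 fold changes of -3.97 to -2.97, and Ly6a did not pass with the feeder score (-0.56). Lyz2, Bglap3 and Acaa1b have close paralogs.

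The step from day 2 to day 4 was set beside the step from ESCs to day 2, which shares the day 2 libraries, so each step is given by its own values and their difference by its own test. From ESCs to day 2, 11072 of the 15696 genes passed (70.5%), 35.6% of all higher and 34.9% lower, and the 2 steps differed in 10638 (67.8%), with the second above the first in 4987 (31.8%) and below it in 5651 (36.0%). Of 28 G2 and M phase genes, 2 rose and 25 fell in the first step, 24 rose and 3 fell in the second, and the second was above the first in 23. Of 25 cholesterol genes, 17 rose and 3 fell in the first step, none rose and 24 fell in the second, and the second was below the first in 24. Of 29 integrated stress response genes, 1 rose and 21 fell first, and 12 rose and 11 fell second. Of 29 germline genes, 25 rose first and 24 second. Of 21 naive genes, 3 rose and 17 fell first and 6 rose and 13 fell second.

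Single genes had the same turns. Egr1 had a log2 fold change of -8.57 ± 0.35 in the first step and 5.14 ± 0.38 in the second, and the difference was 13.71 ± 0.69 (adjusted p = 1.05e-10). Kbtbd11, a Kelch-repeat gene, stood at 0.245 ± 0.100 CPM in ESCs, rose to 70.6 ± 3.24 CPM at day 2 and fell to 16.8 ± 0.658 CPM at day 4, a difference of -10.20 ± 0.17 between the log2 fold changes of the steps (adjusted p = 2.48e-16). Mid1, a ubiquitin ligase gene of the X chromosome, went from 3.51 ± 0.807 CPM to 324 ± 14.5 CPM and 83.2 ± 7.42 CPM, a difference of -8.49 ± 0.15 on that scale (adjusted p = 2.48e-16). Esrrb went from 857 ± 80.8 CPM to 218 ± 8.72 CPM and 251 ± 8.40 CPM, falling first and rising second. Hprt, a purine salvage gene that E14 derivatives often lack, was 195 ± 11.2 CPM in the ESCs, 2.34 ± 0.152 CPM at day 2 and 1.84 ± 0.259 CPM at day 4. Whether the ESC libraries and the later control libraries came from the same subline was not tested, which bears on the first step. Day 4 against day 2 compares no ESC library, but its pooled spread and the fit with the feeder score draw on the ESCs. Feeder collagens in the ESC libraries summed to 1472, 763 and 184 CPM, and replicate 3 stood apart from the others, with chi-square per degree of freedom of 31.8 and 24.2 against 5.86 between replicates 1 and 2. Without it 11804 genes passed in the first step and 11496 differed between the steps.

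The same interval in Atg7 KO cells uses other libraries. Atg7 was 6.84, 7.53 and 7.11 CPM in the KO libraries at day 2 and 12.6, 12.7 and 10.4 CPM at day 4, lower than in every control library of the same day but present, and the sources used here do not name the exons targeted. In KO cells 9922 of 15696 genes changed (63.2%), with 31.2% of all higher and 32.0% lower. Across the 15696 genes, which are not independent replicates, the log2 fold changes of control and KO cells had a Pearson r of 0.75 and a Spearman rho of 0.71. Genes that passed in both numbered 7724, which is 71.9% of the control calls and 77.8% of the KO calls, and 7078 of them (91.6%) had the same direction. The test of the difference between the changes was passed by 5674 genes (36.1%), with the control change above the KO change in 2755 (17.6%) and below it in 2919 (18.6%).

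**Figure D3:**
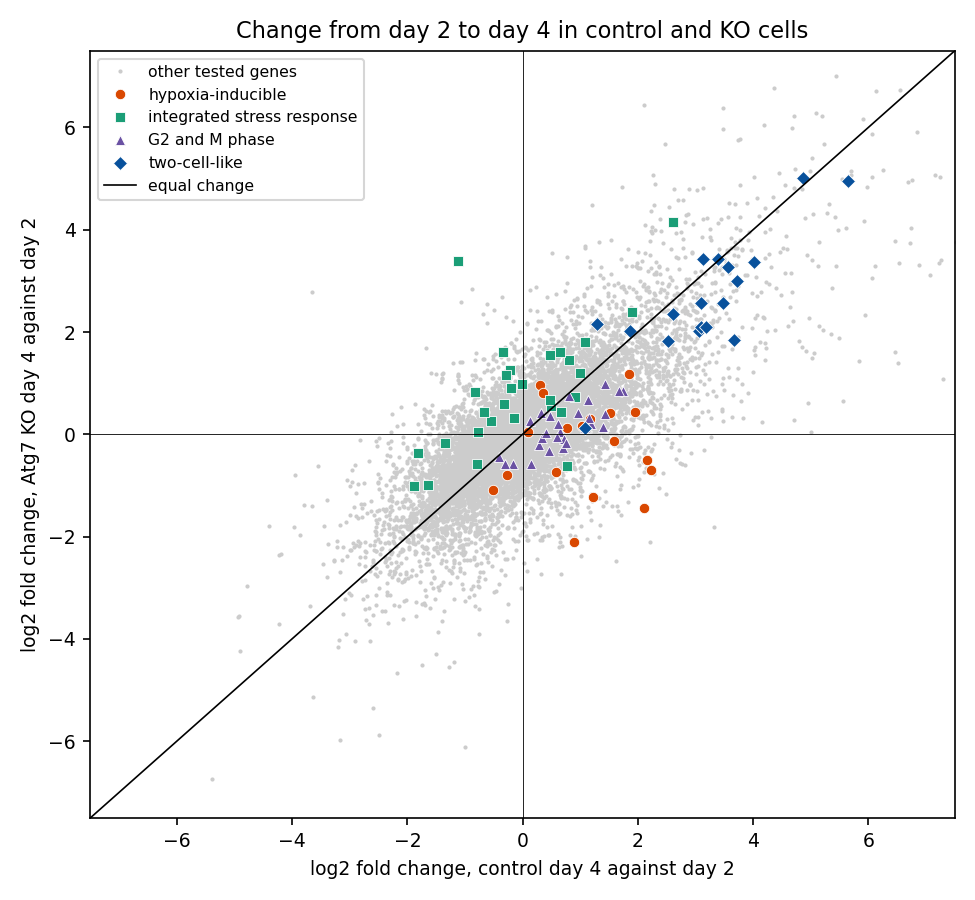
Log2 fold change of day 4 against day 2 in control cells (horizontal) and in Atg7 KO cells (vertical), 1 point per tested gene, with 4 lists marked and a line of equal change. Most hypoxia-inducible and G2 and M phase genes lie below the line and most integrated stress response genes above it, and 8 genes lie outside the axes.

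Some lists had shares of differing members unlike those of all tested genes, where the control change was above the KO change in 17.6% and below it in 18.6%. Of 28 G2 and M phase genes the control change was above the KO change in 23 and below it in none. Of 19 hypoxia-inducible genes it was above in 14 and below in 3. Bnip3 had a log2 fold change of 2.11 ± 0.26 in control and -1.44 ± 0.28 in KO cells, a difference of 3.55 ± 0.38 (adjusted p = 5.57e-06). In 29 integrated stress response genes the control change was below the KO change in 19 and above it in 1, with Slc7a5, an amino acid transporter gene, at log2 fold changes of -0.29 ± 0.09 in control and 1.17 ± 0.09 in KO cells (adjusted p of the difference 8.57e-07) and 0.10 in control with GC-corrected counts, not past the test. Of 30 S phase genes it was below in 14 and above in none. The list of 41 ribosomal protein genes had 16 above and 1 below.

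The change differed between control and KO cells in 36.1% of all tested genes. In the two-cell-like list the share was 11.1%, in the cholesterol list 52.0% and in the naive list 57.1%. Of 18 two-cell-like genes 16 rose in KO cells and 2 did not pass, and 2 differed, both with the larger change in control. Of 25 cholesterol genes 24 fell in KO cells too, and the control change was below the KO change in 12 and above it in 1. Dusp6 rose with log2 fold changes of 3.05 ± 0.19 and 2.96 ± 0.19 (adjusted p of the difference 0.823). Of 21 naive genes 13 fell and 8 rose in KO cells, and 12 differed. Nanog fell, with log2 fold changes of -0.37 in control and -0.77 in KO cells, a difference of 0.40 ± 0.14 (adjusted p = 0.0323). Dnmt3a rose, with 1.27 in control and 1.91 in KO cells on the log2 scale, a difference of -0.64 ± 0.11 (adjusted p = 2.33e-04). Dppa3 rose in control, with 43.1, 32.6 and 42.0 CPM at day 4, and went from 17.5 ± 1.16 CPM to 4.37 ± 0.921 CPM in KO cells, a difference of 2.65 ± 0.22 (adjusted p = 8.90e-07).

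GC content and length of the transcript moved with the comparison. The median log2 fold change fell with the GC content of the transcript, from 0.36 in the lowest of 5 equal groups of genes by GC content to -0.49 in the highest (Spearman rho -0.36 across genes, given as a description). In KO cells the same medians were 0.15 and -0.25, and in the first step of control cells 0.01 and 0.10. By length they ran from -0.21 in the shortest of 5 such groups to 0.13 in the longest. With GC-corrected counts 10335 genes passed, 5177 of them higher and 5158 lower.

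**Figure D4:**
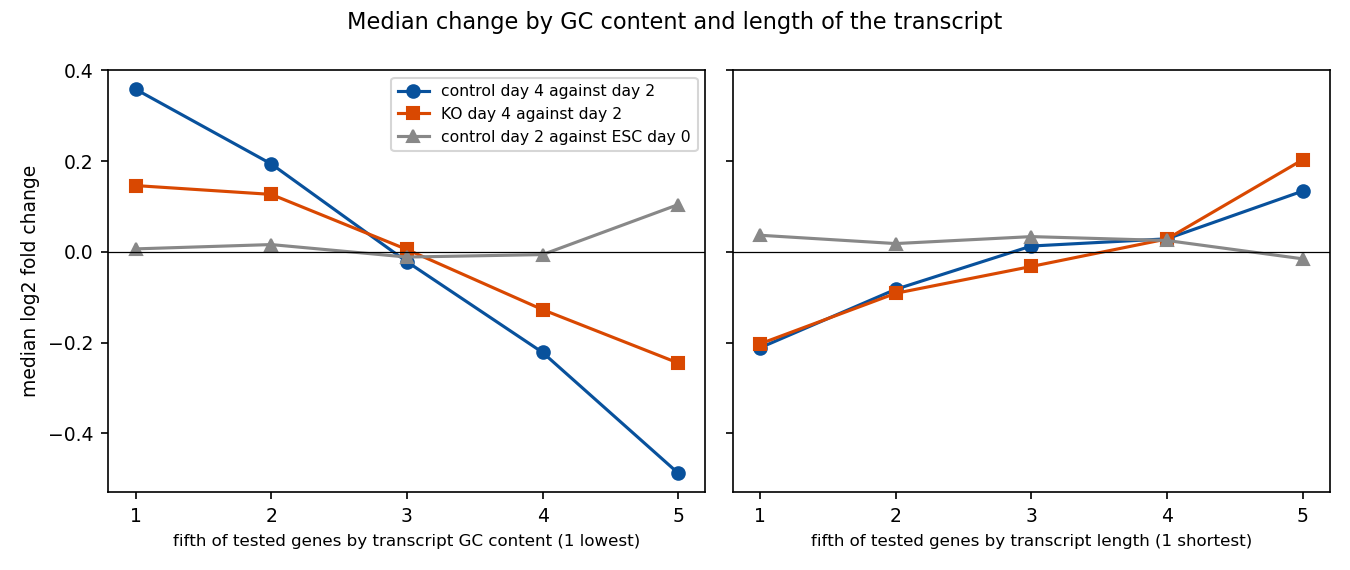
Median log2 fold change in 5 equal groups of the tested genes by transcript GC content (left) and length (right) for control day 4 against day 2, KO day 4 against day 2 and control day 2 against ESCs. The control line falls from 0.36 to -0.49 with GC content, and the first step stays between -0.01 and 0.10.

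Genes of 2 autosomes and of the sex chromosomes were shifted as groups. On chromosome 6 the median was 0.39, with 405 of 779 tested genes higher and 152 lower, and on chromosome 18 it was 0.35, with 205 of 408 higher and 67 lower. The other autosomes had medians of -0.18 to 0.17. The X chromosome had 0.21, and all 8 tested genes of the Y chromosome rose, at a median of 1.18. With GC-corrected counts chromosomes 6 and 18 stood at 0.32 and 0.28, X at 0.069 and Y at 0.86. In KO cells the medians were 0.24 and -0.17, so chromosome 18 was shifted the opposite way there. The log2 fold changes of Nanog, Dppa3, Fbxo15, Peg10, Mest, Tax1bp1, Kif20a, Egr1 and the other genes of these chromosomes named above sit on these shifts, whose part in each was not tested.

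**Figure D5:**
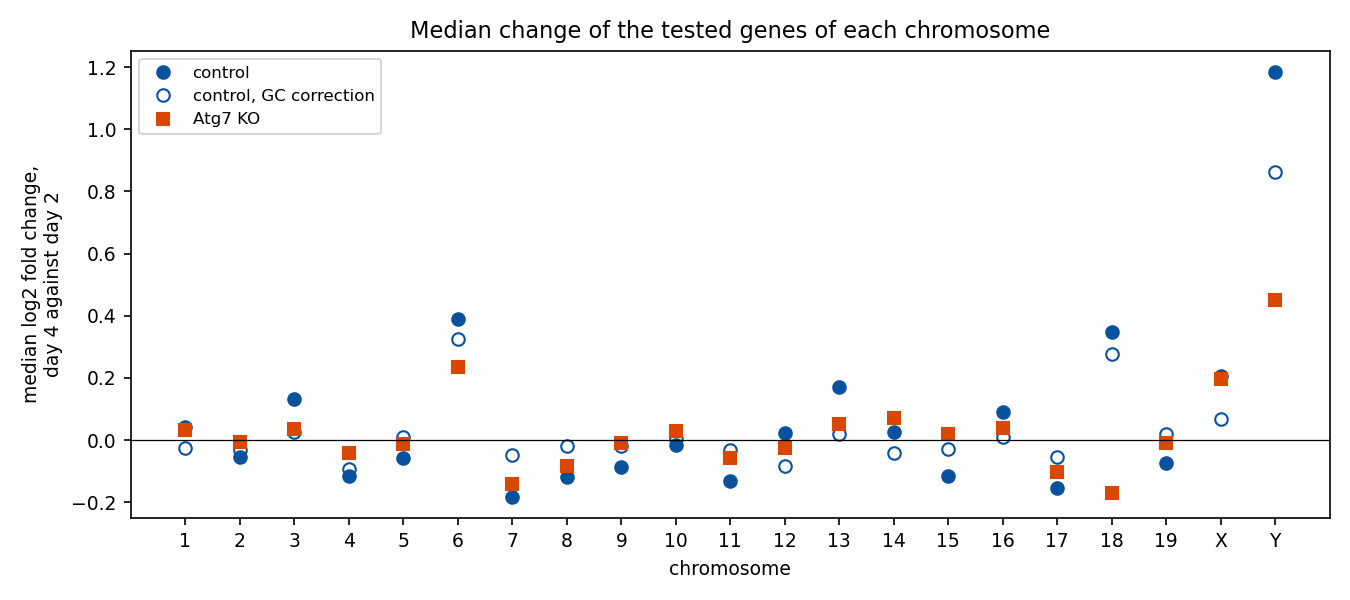
Median log2 fold change of the tested genes of each chromosome for control day 4 against day 2 (filled circles), the same with GC-corrected counts (open circles) and Atg7 KO day 4 against day 2 (squares). Chromosomes 6 and 18 stand at 0.39 and 0.35 in control cells, above the other autosomes, and 18 is at -0.17 in KO cells.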

How the data were processed

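Polyadenylated RNA of the 15 libraries had been sequenced, and the data used are the raw counts per gene symbol that the authors deposited, 1 table per library, with 24982 symbols. The submitters' processing notes name the builds mm10 and GRCm38 and the tools STAR, StringTie, featureCounts and DESeq2. Versions, settings and the use of strand in counting are not given in those sources. Library totals were 14059237 to 23371546 counts.

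The filter was filterByExpr with the 5 groups (10 counts, total 15) and left 15696 genes, and 9286 symbols were not tested, 3371 of them at 0 in every library. Counts were TMM-scaled and fitted in edgeR 4.0.16 (quasi-likelihood, R 4.3.3) with 1 mean per group, and p-values were Benjamini-Hochberg adjusted over all tested genes with a threshold of 0.05. A standard error is the log2 fold change divided by the square root of F. On simulated counts for control day 4 against day 2 this fit called 68.7% of 67 genes changed 1.5-fold, 85.1% of 67 changed 2-fold and 95.5% of 66 changed 4-fold, and 10 of 15153 unchanged genes. Unchanged genes made up 15153 of 15353 there, whereas 68.4% of the tested genes passed in the data. Recovery and false calls with that large a share changed were not tested, so these values do not describe the reported calls.

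The 36 gene lists were written from textbook knowledge, and the members and lists were chosen with earlier results of these data known. Their counts stand beside the shares over all tested genes as a description only. No set test was run, and an excess over those shares can follow from the choice of members. Genes named were the 12 largest changes each way (at least 5 CPM in the higher group, no overlap), members of the pluripotency and methylation lists, up to 3 members each way per other list and those that did not pass or moved against their list, and the 6 largest differences each way between control and KO and between steps. Some members of the lists are not reported here by name. GC content and length of each gene's longest transcript in the GENCODE annotation of GRCm38 were matched for 99.0% of tested genes, and chromosomes from RefSeq on GRCm38.p6, also the source of the promoter windows, for 99.9%. Alternatives were RLE and upper quartile scaling, 2 other filters, DESeq2 1.42.0, fits of only the libraries compared, a replicate block, a test against a 1.5-fold change (glmTreat), the feeder score as a covariate, leaving out each library, and, added after seeing the data, lowess corrections per library for GC content and for GC content and length.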

Additional observations from a re-analysis of the deposited data

Results flagged for a closer look

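The change from day 2 to day 4 differed between control and Atg7 KO cells in 5674 of 15696 genes by the test of the difference itself (edgeR's quasi-likelihood interaction with Benjamini-Hochberg adjustment), with 3 libraries in each of the 4 groups, and the genes with the largest differences at a mean of at least 5 CPM in some group are given here. Egr1, the immediate early factor, had log2 fold changes of 5.14 ± 0.38 in control and 2.12 ± 0.50 in KO cells, a difference of 3.02, and Bnip3, the mitophagy receptor gene, had a difference of 3.55. Cd22, a sialic acid-binding lectin gene of B cells, went from 0.650 ± 0.114 CPM to 11.8 ± 3.71 CPM in control and from 0.915 ± 0.368 CPM to 1.08 ± 0.140 CPM in KO cells, a difference of 3.93. Pygl, the liver glycogen phosphorylase gene, differed by 3.31, Epp13, an epididymal gene, by 3.19, and A2m, a protease inhibitor gene on chromosome 6, by 3.13, each with the control change above the KO change on the log2 scale.

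In 6 genes the control change lay below the KO change. Cebpb, a bZIP factor gene, went from 3.55 ± 1.27 CPM to 1.61 ± 1.56 CPM in control and from 0.650 ± 0.145 CPM to 6.90 ± 2.98 CPM in KO cells, a log2 difference of -4.51. Cox6a2, the muscle form of a cytochrome oxidase subunit gene, differed by -3.12, Hrk, a proapoptotic BH3 gene, by -3.05, Cplx1, a complexin gene of synapses, by -2.94, Bmp8b, a BMP ligand gene, by -2.64, and Bglap3 by -2.60 on that scale. The adjusted p of these 12 differences ran from 5.57e-06 (Bnip3) to 0.0125 (Cox6a2).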

How the results depend on the processing

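In the comparison of control day 4 with day 2, the count of 10741 genes became 4794 when tested against a 1.5-fold change (glmTreat, 2525 higher and 2269 lower). The same setting gave 5273 in place of 11072 for the first step, 3655 in place of 9922 for the KO cells and 846 in place of 5674 for the difference between control and KO. It tests a larger effect by construction. Every other setting run kept these counts and the 10638 genes that differed between the steps within 1.5 times. For day 4 against day 2 in control cells these were RLE and upper quartile scaling (10730 and 10723), no filter (11100), a filter of 10 CPM in 3 libraries (7948), only the 6 libraries compared (11395), DESeq2 (10794), the feeder score as a covariate (9252), the GC correction (10335) and the correction for GC content and length (10409). With 1 library left out the counts were 10024 to 10187, and 10541 to 11804 for the first step, 9808 to 11496 for the difference of the steps, 9154 to 9301 in KO cells and 4832 to 5132 for the difference between control and KO.

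The labels do not say that equal replicate numbers share a culture or a day, and the deviations of same-numbered control libraries of the 2 days had correlations of -0.0158, -0.00884 and -0.0212. The numbers were therefore not used as pairs, but correlations near 0 cannot exclude a shared culture or day. With the replicate number as a block the count was 10669 for day 4 against day 2 in control cells, 10982 for the first step, 10553 for the difference of the steps, 9825 in KO cells and 5518 for the difference between control and KO. No control library of either day correlated best with its own number on the other day. Of the genes named the block moved only Fos, Sox3 and Cebpb past the threshold.

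Of 263 genes named, some turned direction in control day 4 against day 2. With the feeder score as a covariate the log2 fold change was 0.12 for Ccnd1, 0.25 for Foxd3, 0.095 for Foxh1, 0.34 for Mthfd2, 0.69 for Nr0b1, 0.34 for Psat1, 0.32 for Shmt2 and 0.16 for Uhrf1, all of which had negative values in the reported fit. The score separates the 2 days and spreads within groups mostly in the ESC libraries, so these values extrapolate from libraries outside the comparison. Col3a1, at 0.81, is part of that score, so its turn follows from the construction. With the GC correction and with that for GC content and length it was 0.36 and 0.40 for Aldoa, 0.33 and 0.38 for Foxh1, 0.10 and 0.091 for Slc7a5, 0.12 and 0.13 for Srf, 0.73 and 0.80 for Tcf15, -0.26 and -0.27 for Zcwpw1, and with the GC correction alone -0.0078 for Rpl5. The cause of the other turns was not tested. The 1.5-fold test left 53 of the named genes without a call, the feeder score 20 and the GC correction 14 beside those that turned, DESeq2 6, and no single library left out more than 7. In the fit of only the 6 libraries compared 16 named genes passed that had not, and 1 (Gapdh) no longer did. Among the 16 were Lin28a, Fos, Etv4, Mdm2, Ldhb and Slc16a1. Totals of 14059237 to 22290971 counts limit genes at a few counts, such as Fgf5, where only a ratio with its counting interval is given.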
